A study of Mus musculus with 2 samples.

Results

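The complement genes described here are *C3*, *C4b*, *C1s1*, *C1ra*, *C2*, *Cfb*, *Cfd*, *Serping1* and *Cd55*. These 9 genes were chosen by name from the 31053 genes counted by single-cell RNA sequencing (scRNA-Seq) in fibro-adipogenic progenitors (FAPs), the mesenchymal cells that lie between muscle fibers. FAPs were sorted as cells negative for the lineage markers CD45 and CD31 and for Vcam1 and positive for Sca1, from limb muscles of C57BL/6 mice (C57BL/6J in the study's methods) aged 3 weeks. There was 1 library of Bap1 f/f mice, called Bap1 WT, and 1 library of their Prx1-Cre Bap1 f/f littermates, called Bap1 ΔMPC. Both genotypes carry the floxed *Bap1* allele, and the Prx1-Cre transgene deletes it in limb mesenchyme, from which limb muscle FAPs derive. Neither the number of mice behind a library nor a second library was given, so the spread between libraries of 1 genotype is unknown and differences are described without a test. The libraries are named by their labels below, as WT-labelled and ΔMPC-labelled.

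Complement is a cascade of serum proteases that marks surfaces for removal. In the classical pathway the proteases C1r and C1s, bound to C1q, cleave C4 and C2, and the fragments form an enzyme that cleaves C3, the protein on which all routes converge. The alternative pathway amplifies C3 cleavage through factor B and factor D. The C1 inhibitor blocks the proteases that start the classical pathway, and CD55 breaks up the enzymes that cleave C3. Liver makes most of the circulating proteins, and fibroblasts and adipocytes make several of them locally.

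The cells were split by rule genes that are not complement genes. Dpp4-type cells had 25 or more UMIs (unique molecular identifiers, 1 per captured transcript) per 10000 from *Pi16*, *Sema3c*, *Anxa3* and *Efemp1* together. Cxcl14-type cells were below 25 on that score and had 5 or more UMIs of *Cxcl14* per 10000, and the cells in neither group are called the remaining cells. Levels are UMIs summed over the cells of a group, per 1000000 UMIs of that group (CPM). All intervals are exact 95% intervals (Poisson for CPM, conditional binomial for ratios, Clopper-Pearson for shares) and cover counting error only. Each UMI stands for 1 transcript counted at its 3′ end, so CPM were not divided by gene length.

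Sequence upstream of the start site is shown for *C3*, which differed most between the libraries among the 9 genes leaving out the scarce *Cfd*, and for *Cd55* and *C1s1*, which leaned to opposite groups of cells. RefSeq promoter windows on GRCm38.p6 were found for 5 of the 9 genes (*C3*, *Cd55*, *C1ra*, *C1s1* and *Cfd*). *C4b*, *C2*, *Cfb* and *Serping1* are named only. *C1s1* has 2 annotated start sites, and the window of the upstream one is given. Each run holds the 250 bases before the start site, read 5′ to 3′ on the strand of the gene. Capitals mark matches on either strand to TTNNGNAA, a form of the site bound by C/EBP factors, or to GGGCGG, the GC box.
*C3*, minus strand, chr17:57228137-57228386: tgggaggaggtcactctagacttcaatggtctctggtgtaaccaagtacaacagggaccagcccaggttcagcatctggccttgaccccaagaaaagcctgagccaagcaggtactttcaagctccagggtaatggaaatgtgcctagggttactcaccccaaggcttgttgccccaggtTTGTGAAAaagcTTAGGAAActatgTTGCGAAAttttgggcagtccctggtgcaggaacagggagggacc
*Cd55*, minus strand, chr1:130462745-130462994: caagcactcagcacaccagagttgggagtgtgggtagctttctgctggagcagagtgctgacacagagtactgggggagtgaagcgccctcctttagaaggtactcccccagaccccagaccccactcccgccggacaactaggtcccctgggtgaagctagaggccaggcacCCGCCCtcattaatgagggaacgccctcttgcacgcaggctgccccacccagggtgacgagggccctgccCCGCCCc
*C1s1*, minus strand, chr6:124542360-124542609: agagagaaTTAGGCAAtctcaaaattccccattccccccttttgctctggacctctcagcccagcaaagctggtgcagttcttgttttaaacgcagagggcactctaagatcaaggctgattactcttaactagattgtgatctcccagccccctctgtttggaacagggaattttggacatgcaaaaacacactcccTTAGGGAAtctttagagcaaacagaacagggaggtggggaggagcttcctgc

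The *C3* window held 3 matches to TTNNGNAA, counted back from the start site at -70 to -63, -58 to -51 and -45 to -38, the last of them on both strands. Among 32841 windows of the same length, 36.9% held this motif and 2.62% held it 3 or more times. The *C1s1* window held it at -242 to -235 and at -52 to -45, and 10.9% of windows held it 2 or more times. The *Cd55* window held GGGCGG on the opposite strand at -77 to -72 and at -7 to -2, and 16.7% of windows held it 2 or more times (32.7% at least once). The window of *C1ra* held 2 matches to TTNNGNAA, and that of *Cfd* held none of the motifs searched. The other motifs searched were TATAAA (in 12.4% of windows), CCAAT (33.9%), TTCNNNGAA (7.02%), GAAA followed after any 2 bases by GAAA (2.98%) and the NF-kB site (3.9%), and none of them matched in the windows of these 5 genes. No motif overlapped another kind of motif. A match is a description of the letters and shows no binding.

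On GRCm38, 4 of the 9 genes lie on chromosome 17. *C4b* (34728380 to 34743882), *Cfb* (34856374 to 34862518) and *C2* (34862604 to 34898265) are within 169886 bases of each other on the minus strand, with 85 bases between *Cfb* and *C2*, and *C3* is at 57203970 to 57228136. *C1ra* and *C1s1* are neighbors on chromosome 6, 6901 bases apart and on opposite strands. The annotated genes that overlap *C2* and *Cfb* (*Gm20547*), *C1s1* (*Gm16567*) and *Cd55* (*Gm16083*) had 0 to 6 UMIs in each library, and *Zbtb12*, which overlaps *C2* on the opposite strand, had 128 and 155 UMIs. *Mir6972* and *Mir6978*, which overlap *Cfb* and *C3*, were not found by name among the genes counted. Some reads cannot be told apart from those of close copies: of the 50-base words in the last 500 bases of the transcript, 38.1% for *C4b* are also in *C4a*, 19.1% for *C1ra* are also in *C1rb* and 18% for *C1s1* are also in *C1s2*, against 0 for *Cd55* in *Cd55b*. *C4a* was looked up by name and was not found among the genes counted, so *C4b* could not be compared with it. The counts of *C4b*, *C1ra* and *C1s1* are uncertain to the extent that such reads were dropped or divided.

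There were 4103 cells with 51015705 UMIs (median 12232 per cell) in the WT-labelled library and 4378 cells with 49540066 UMIs (median 11017.5 per cell) in the ΔMPC-labelled library. They shared 5 cell barcodes. *Bap1* itself was not lower where it should be deleted, at 17.6 CPM in the WT-labelled library and 21.6 CPM in the ΔMPC-labelled library, and counts at the 3′ end do not show which exons a transcript held, so directions are given by label. Dpp4-type cells numbered 1050 and 1251, Cxcl14-type cells 569 and 1020, and remaining cells 2484 and 2107. Markers outside the rule followed the names: *Dpp4* was at 298 CPM in Dpp4-type and 28.1 CPM in Cxcl14-type cells of the WT-labelled library (268 and 9.59 CPM in the other library), and *Smoc2* was at 259 and 2737 CPM (166 and 842 CPM). The groups are ranges of a score rather than separate types: 566 and 589 cells lay at a Dpp4-type score of 10 to 25, just below the limit, and 398 and 646 lay at 25 to 50. *Pdgfra*, which marks FAPs, had a UMI in 93.9% and 84.1% of cells, and *Ptprc* and *Adgre1*, which define leukocytes and macrophages, had none in either library; the study's methods describe a step that took out cells high in markers of other cell types.

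Over all cells, *C3*, *C4b*, *Cfb* and *Cd55* were higher in the ΔMPC-labelled library, and *C1s1*, *C1ra*, *C2* and *Serping1* were lower. *C3* stood apart in size, 2.83-fold higher over all cells and 8.70-fold higher in Cxcl14-type cells, where *C4b* and *Cfb* were also more than 3-fold higher. Of the 8 genes with 20 or more UMIs in both libraries together (all but *Cfd*), none passed a 3-fold ratio over all cells in either direction, where 3.15% of 14729 genes were over 3-fold higher and 2.12% over 3-fold lower. In Dpp4-type cells none of the 8 passed it, beside 1.89% higher and 1.63% lower among 12517 genes. Cxcl14-type cells had 3 of the 8 over 3-fold higher (*C3*, *C4b* and *Cfb*) and none lower, beside 3.52% and 1.82% of 12265 genes. The remaining cells had 1 higher (*C3*) and none lower, beside 3.31% and 2.08% of 13810 genes. The median log2 ratio of the 8 genes was 0.12 over all cells (0.10 for all genes tested), 0.24 in Dpp4-type cells (0.07), 0.43 in Cxcl14-type cells (0.07) and -0.045 in the remaining cells (0.11).

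**Figure D1:**
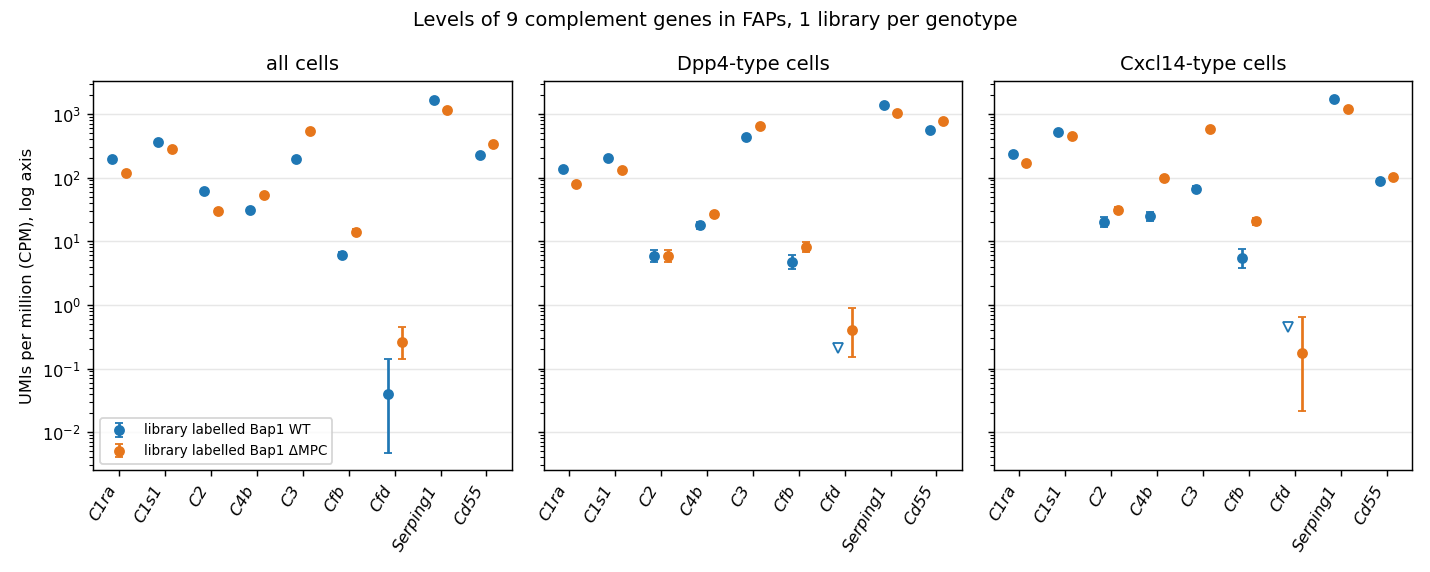
CPM (log axis) of the 9 complement genes over all cells, in Dpp4-type cells and in Cxcl14-type cells, blue for the WT-labelled library and orange for the ΔMPC-labelled library; bars are exact 95% Poisson intervals, and open triangles stand at the level of 3 counts where no UMI was found. *Serping1* is highest in every panel at 1034 to 1698 CPM, *Cfd* is lowest, and *C3* in Cxcl14-type cells lies at 66.5 CPM in blue and 579 CPM in orange.

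Among the proteases that start the classical pathway, *C1s1* and *C1ra* were both lower in the ΔMPC-labelled library in every group of cells. *C1s1*, which encodes the protease that cleaves C4 and C2, was at 368 CPM in the WT-labelled library and 285 CPM in the ΔMPC-labelled library, 1.29-fold lower (interval 1.26 to 1.32). In Dpp4-type cells it was at 203 and 131 CPM (1.55-fold lower, 1.46 to 1.64), and in Cxcl14-type cells at 515 and 443 CPM (1.16-fold lower, 1.11 to 1.22). The log2 ratio was thus 0.41 nearer to 0 in Cxcl14-type than in Dpp4-type cells (0.31 to 0.52). *C1ra*, which encodes the protease that switches on C1s, was at 194 and 120 CPM over all cells (1.63-fold lower, 1.57 to 1.68). Its levels were 135 and 77.7 CPM in Dpp4-type cells and 237 and 171 CPM in Cxcl14-type cells. Both genes were broadly detected, with a UMI of *C1s1* in 92.0% and 80.0% of cells and of *C1ra* in 80.6% and 61.7% of cells.

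Next in the cascade, *C4b* and *C2* went opposite ways over all cells. *C4b*, which encodes complement C4, was at 30.6 CPM in the WT-labelled library and 52.9 CPM in the ΔMPC-labelled library (1.73-fold higher, 1.63 to 1.85). The difference was widest in Cxcl14-type cells, at 24.6 and 98.6 CPM (4.00-fold, 3.40 to 4.75), against 17.9 and 26.3 CPM in Dpp4-type cells (1.48-fold, 1.26 to 1.74) and 37.8 and 47.8 CPM in the remaining cells (1.26-fold, 1.16 to 1.37). The log2 ratio in Cxcl14-type cells exceeded that in Dpp4-type cells by 1.44 (1.11 to 1.77).

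*C2*, which encodes the partner that gives the C3-cleaving enzyme its protease, was at 60.8 and 30.0 CPM over all cells, 2.03-fold lower in the ΔMPC-labelled library (1.90 to 2.16). The ratio differed between the groups of cells. Most of its UMIs came from the remaining cells (2886 of 3104, and 1055 of 1487), at 95.6 and 44.9 CPM (2.13-fold lower, 1.98 to 2.29). Dpp4-type cells held 5.88 and 5.89 CPM, a ratio of 1.002 (0.73 to 1.37) that moved with the limit of the group, to a log2 value of -0.32 from a score of 15 and 0.69 from 40. Cxcl14-type cells held 20.1 and 30.6 CPM, 1.52-fold higher (1.24 to 1.87). That last direction depended on the limit for Cxcl14-type cells: the log2 ratio was -0.068 from 2 *Cxcl14* UMIs per 10000 and 1.23 from 10.

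*C3*, which encodes the protein cleaved by both pathways, was at 194 CPM in the WT-labelled library and 548 CPM in the ΔMPC-labelled library over all cells (interval of the ratio 2.76 to 2.90). Dpp4-type cells held 428 and 639 CPM (1.495-fold, 1.45 to 1.54), Cxcl14-type cells 66.5 and 579 CPM (8.70-fold, 7.90 to 9.59) and the remaining cells 113 and 476 CPM (4.23-fold, 4.07 to 4.39). The log2 ratio was 2.54 larger in Cxcl14-type than in Dpp4-type cells (2.39 to 2.69) and 1.499 larger in the remaining than in Dpp4-type cells (1.43 to 1.57). Over all cells *C3* passed 3-fold when each cell weighed the same (log2 1.68) or was thinned to 5000 UMIs (log2 1.68).

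The share of cells with a UMI of *C3* was 32.2% (30.8% to 33.7%) and 62.8% (61.4% to 64.2%), and 24.1% and 52.4% after thinning. In Cxcl14-type cells it was 20.4% and 64.4% (thinned 13.1% and 54.4%), and in Dpp4-type cells 58.5% and 70.6% (thinned 47.9% and 60.1%). *C3* was uneven from cell to cell in the WT-labelled library: the 5% of Cxcl14-type cells with the most *C3* held 70.9% of that group's 446 *C3* UMIs, with up to 30 UMIs in 1 cell. The corresponding share in the ΔMPC-labelled library was 31.2% of 6516 UMIs, with up to 73 in 1 cell. The higher level there thus came with both more cells with a UMI and more UMIs per such cell (a mean of 9.92 against 3.84).

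**Figure D2:**
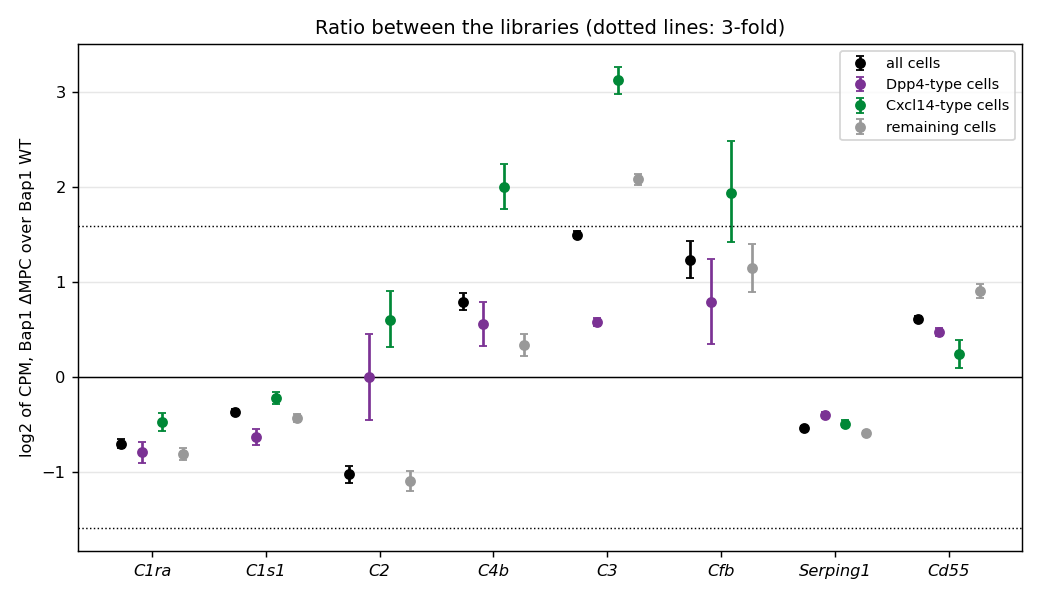
log2 of the CPM ratio, ΔMPC-labelled library over WT-labelled library, for 8 complement genes (*Cfd* was left out for its few UMIs), in black for all cells, purple for Dpp4-type, green for Cxcl14-type and grey for remaining cells; bars are exact 95% intervals and dotted lines mark 3-fold. *C3*, *C4b* and *Cfb* lie above the upper line in Cxcl14-type cells, *C3* also in the remaining cells, and *C2* is on opposite sides of 0 in Cxcl14-type and remaining cells.

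In the alternative pathway, *Cfb*, which encodes factor B, was scarce and *Cfd*, which encodes factor D (adipsin, a protease known from adipocytes), was nearly absent. *Cfb* was at 6.02 CPM in the WT-labelled library and 14.2 CPM in the ΔMPC-labelled library (2.36-fold higher, 2.06 to 2.71). It was at 4.75 and 8.19 CPM in Dpp4-type cells (1.73-fold, 1.27 to 2.36) and at 5.37 and 20.5 CPM in Cxcl14-type cells, which is 36 and 231 UMIs (3.82-fold, 2.68 to 5.59, an interval that includes 3). The *Cfd* counts were 2 UMIs in the WT-labelled library and 13 in the ΔMPC-labelled library, a ratio of 6.69 with an interval from 1.52 to 61.1. Dpp4-type cells had 0 and 6 UMIs of *Cfd*, which is 1.91-fold higher against a floor of 3 counts per library. The exact interval of that ratio starts at 1.13-fold. Cxcl14-type cells had 0 and 2 UMIs of *Cfd*. Having 0 of 1050 Dpp4-type and 0 of 569 Cxcl14-type cells with a UMI allows a share of cells with a UMI of up to 0.286% and 0.527% by the limit of 3 counts, or 0.351% and 0.646% by the Clopper-Pearson interval.

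The regulators also went opposite ways. *Serping1*, which encodes the C1 inhibitor that blocks C1r and C1s, had the highest level of the 9 genes in all groups of cells. It was at 1672 CPM in the WT-labelled library and 1156 CPM in the ΔMPC-labelled library (1.45-fold lower, 1.43 to 1.46). The ratio varied little between groups of cells: levels were 1359 and 1034 CPM in Dpp4-type cells (1.31-fold lower), 1698 and 1210 CPM in Cxcl14-type cells (1.40-fold lower) and 1812 and 1207 CPM in the remaining cells (1.502-fold lower). It was detected in 99.8% and 97.5% of cells.

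*Cd55*, which encodes the membrane protein that breaks up C3-cleaving enzymes, was at 222 and 339 CPM (1.53-fold higher in the ΔMPC-labelled library, 1.49 to 1.56). It was at 566 and 786 CPM in Dpp4-type cells (1.39-fold, 1.35 to 1.43), 86.7 and 103 CPM in Cxcl14-type cells (1.19-fold, 1.07 to 1.31) and 91.6 and 172 CPM in the remaining cells (1.88-fold, 1.79 to 1.97). Unlike for *C3*, *C4b* and *Cfb*, the ratio of *Cd55* was lowest in Cxcl14-type cells, and its log2 value there differed from that in Dpp4-type cells by -0.23 (-0.38 to -0.08).

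The order of the 9 levels differed between the libraries. Over all cells it ran *Serping1*, *C1s1*, *Cd55*, *C1ra*, *C3*, *C2*, *C4b*, *Cfb* and *Cfd* in the WT-labelled library, where the intervals of *C1ra* and *C3* overlapped, and *Serping1*, *C3*, *Cd55*, *C1s1*, *C1ra*, *C4b*, *C2*, *Cfb* and *Cfd* in the other, where no neighboring intervals did. In Cxcl14-type cells of the WT-labelled library the order ran *Serping1*, *C1s1*, *C1ra*, *Cd55*, *C3*, *C4b*, *C2*, *Cfb* and *Cfd*, and the intervals of *C4b* and *C2* overlapped. In the ΔMPC-labelled library, *C3* stood second after *Serping1* and was above *C1s1*, and the intervals of *Cd55* and *C4b* overlapped. In Dpp4-type cells *C3* held the third place behind *Serping1* and *Cd55* in both libraries.

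**Figure D3:**
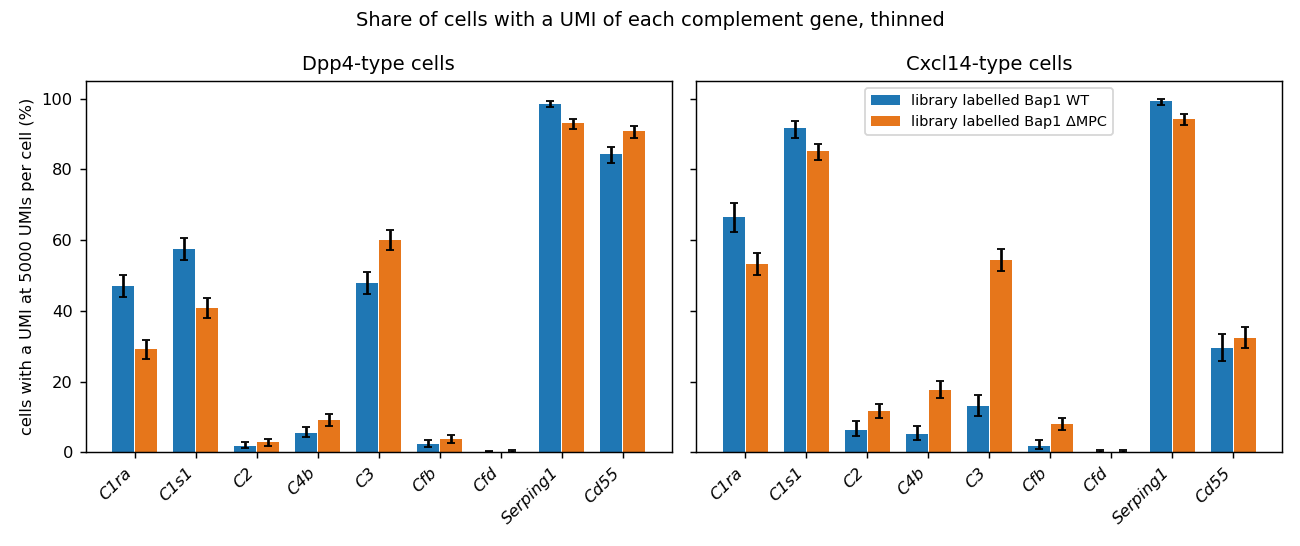
Percent of Dpp4-type cells (left) and Cxcl14-type cells (right) with at least 1 UMI of each complement gene after each cell was thinned to 5000 UMIs, blue for the WT-labelled library and orange for the ΔMPC-labelled library; bars start at 0 and error bars are exact 95% binomial intervals. *C3* goes from 13.1% to 54.4% of Cxcl14-type cells and from 47.9% to 60.1% of Dpp4-type cells, and *C1s1* and *C1ra* are lower in orange in both panels.

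Thinning, which puts all cells at 1 depth, left the order of the libraries as it was in the shares over all cells for *C1s1* (77.6% and 64.2%), *C1ra* (57.4% and 40.3%), *C2* (16.6% and 10.6%), *C4b* (7.26% and 12.4%), *Cfb* (2.94% and 6.31%) and *Cd55* (42.0% and 52.4%). Fewer cells were at that depth or above in each library (3983 of 4103 and 4168 of 4378). After thinning the median cell held UMIs of 3 of the 9 genes in both libraries, and the median Cxcl14-type cell held 3 in the WT-labelled library and 4 in the ΔMPC-labelled library.

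Within a library, the genes divided between the groups of cells. Of the 8 genes, 2 were over 3-fold higher in Dpp4-type than in Cxcl14-type cells of the WT-labelled library (*C3* and *Cd55*), where 4.53% of 12218 genes were, and 1 was over 3-fold higher in Cxcl14-type cells (*C2*), where 5.38% were. *C2* no longer passed 3-fold there with a Dpp4-type limit of 15 or a *Cxcl14* limit of 10. In the ΔMPC-labelled library, 1 was over 3-fold higher in Dpp4-type cells (*Cd55*) beside 3.56% of 12685 genes, and 3 were over 3-fold higher in Cxcl14-type cells (*C4b*, *C1s1* and *C2*) beside 6.76%. *Cd55* was 6.53-fold higher in Dpp4-type cells (6.00 to 7.12) in the WT-labelled library and 7.65-fold higher (7.20 to 8.13) in the other library. *C3* was 6.42-fold higher in Dpp4-type cells (5.83 to 7.09) in the WT-labelled library and 1.10-fold higher (1.07 to 1.14) in the ΔMPC-labelled library. So *Cd55* kept its lean to Dpp4-type cells in both libraries, and the lean of *C3* was much smaller in the ΔMPC-labelled library.

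*C1s1* and *C1ra* leaned to Cxcl14-type cells, 2.53-fold and 1.76-fold in the WT-labelled library and 3.37-fold and 2.20-fold in the ΔMPC-labelled library. *C4b* leaned the same way by 1.38-fold (1.13 to 1.68) and 3.74-fold (3.33 to 4.21). For *Cfb* the ratio was 1.13 with an interval that included 1 (0.73 to 1.72) in the WT-labelled library and 2.50 (2.00 to 3.15) in the other. *C2* was 3.43-fold and 5.20-fold higher in Cxcl14-type than in Dpp4-type cells, but its highest level was in the remaining cells, 16.3-fold and 7.62-fold above Dpp4-type cells. *Serping1* was 1.25-fold and 1.17-fold higher in Cxcl14-type cells.

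Free RNA from broken cells can put UMIs of a gene into cells that do not express it. All cells were sorted as FAPs, so no cell type that lacks these genes could serve as its measure. *Efhd1*, a Dpp4-type marker outside the rule, was at 320 CPM in Dpp4-type and 14.5 CPM in Cxcl14-type cells of the WT-labelled library and at 308 and 25.05 CPM in the ΔMPC-labelled library. *C3* in Cxcl14-type cells of the ΔMPC-labelled library was at 579 CPM beside 639 CPM in Dpp4-type cells, and *Cd55* was at 103 CPM beside 786 CPM. In the WT-labelled library, *C3* and *Cd55* stood at 446 and 581 UMIs in Cxcl14-type cells. They stood at 6035 and 7992 UMIs in Dpp4-type cells, nearly the same proportion. Their spread over the Cxcl14-type cells was unlike. *C3* had a UMI in 116 of these cells, with up to 30 in 1 cell, and *Cd55* in 291, with up to 10. The 5% of cells with the most UMIs held 70.9% of those of *C3* and 26.2% of those of *Cd55*. The part of free RNA in these levels was not tested in either library.

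Along the Dpp4-type score, *C3* differed most between the libraries at the low end. At scores of 0 to 5 *C3* was at 71.5 CPM (1769 cells) in the WT-labelled library and 454 CPM (2030 cells) in the ΔMPC-labelled library. Between 50 and 100 the levels were 488 and 591 CPM, and from 100 up they were 364 CPM (144 cells) and 429 CPM (82 cells). The WT-labelled library thus held its lowest *C3* level in the cells with the lowest score, while the other library held *C3* above 400 CPM in every bin. *Cd55* was higher in each higher bin of both libraries, from 52.4 to 720 CPM and from 75.1 to 1190 CPM. *C1s1* was lower in each higher bin, from 472 to 114 CPM and from 391 to 61.4 CPM.

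The Cxcl14-type cells of the libraries were not alike in *Cxcl14* itself, at 1446 and 2807 CPM, so levels were also set side by side in bins of *Cxcl14*. Other markers of the type were lower in the ΔMPC-labelled library: *Smoc2* (2737 and 842 CPM), *Hsd11b1* (177 and 62.5 CPM) and *Crispld2* (174 and 72.5 CPM). *Col15a1* was at 1916 and 1961 CPM. The summed FAP markers were at 70657 and 41947 CPM, with 1 of 5 higher. Whether the bins matched the cells in these markers was not tested. At 5 to 20 *Cxcl14* UMIs per 10000, *C3* was at 65.4 CPM (450 cells) in the WT-labelled library and 510 CPM (524 cells) in the ΔMPC-labelled library, and at 20 to 50 it was at 65.8 CPM (107 cells) and 608 CPM (324 cells). The *C3* levels of the libraries thus stayed more than 3-fold apart within both bins. For *C4b* the same bins held 27.4 and 77.5 CPM, then 14.3 and 124 CPM. *C2* in the WT-labelled library was at 113 CPM below 0.5 *Cxcl14* UMIs, 23.0 CPM at 5 to 20 and 9.29 CPM at 20 to 50, while the ΔMPC-labelled library had 50.9, 32.8 and 31.1 CPM. The *C2* levels of the libraries thus crossed along *Cxcl14*. The bin from 50 *Cxcl14* UMIs up held 12 cells of the WT-labelled library and was not used.

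**Figure D4:**
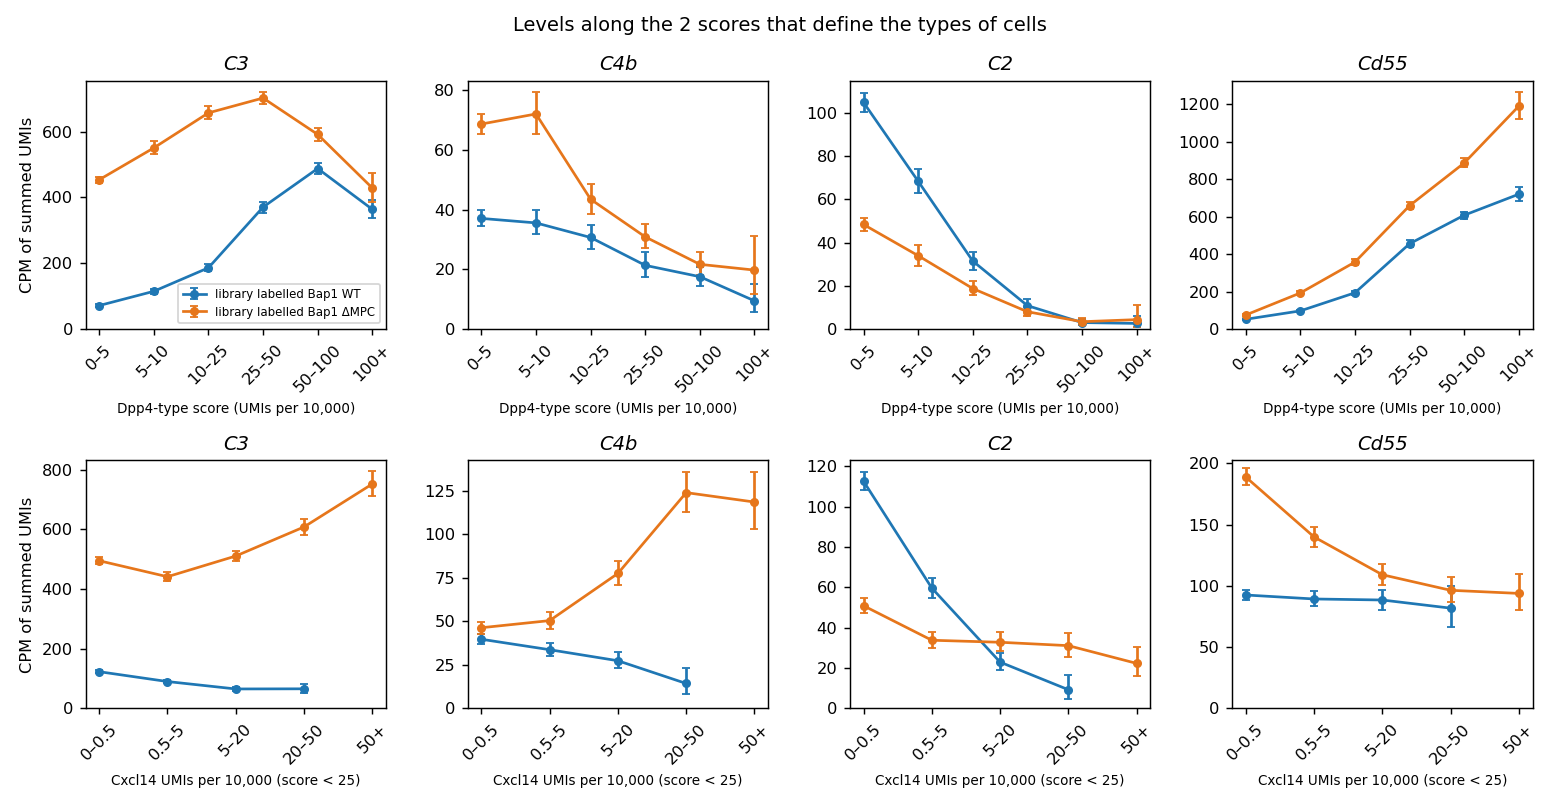
CPM of *C3*, *C4b*, *C2* and *Cd55* in bins of cells along the Dpp4-type score (upper row) and, for cells below 25 on that score, along *Cxcl14* UMIs per 10000 (lower row), blue for the WT-labelled library and orange for the ΔMPC-labelled library; bars are exact 95% Poisson intervals and bins under 20 cells are left out. *C3* in blue is at 71.5 CPM in the lowest score bin and in orange stays above 400 CPM throughout; the *C2* curves cross along *Cxcl14*.

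The summed levels of most marker lists of other cell types were also higher in Cxcl14-type cells of the ΔMPC-labelled library. Of 8 adipocyte markers, 7 were higher in Cxcl14-type cells of the ΔMPC-labelled library, with a summed level of 11.9 and 123 CPM; *Adipoq*, *Cidec*, *Retn* and *Lep* were at 0 in the WT-labelled library and *Cidec* in both. Of 10 macrophage markers, 6 were higher, with a summed level of 6.56 and 24.7 CPM and *Ptprc* and *Adgre1* at 0 in both. Without the cells that had a UMI of *Adipoq*, *Plin1* or *Cidec* (6 and 90 cells), the log2 ratios in Cxcl14-type cells were 3.08 for *C3*, 1.88 for *C4b* and 1.84 for *Cfb*, beside 3.12, 2.00 and 1.93 with them. Without the cells that had a UMI of *Csf1r*, *Cd68*, *C1qa*, *C1qb*, *C1qc*, *Ptprc* or *Adgre1* (346 and 495 cells), they were 3.07, 1.93 and 1.96. All 3 genes thus kept a ratio over 3-fold in both cases. Cells with only other markers of the 2 lists stayed in, so the check covers part of each list. Among the markers not used, *Fabp4* had 16 and 664 UMIs in Cxcl14-type cells, *Car3* 36 and 351, and *Lyz2* 7 and 130. The part of cells with these markers in the result was not tested. In Cxcl14-type cells, 2 of 4 endothelial markers were higher, with a summed level of 3.43 and 10.8 CPM. *Pecam1* had 11 and 116 UMIs, and *Emcn* was at 0 in the WT-labelled library. *Cdh5* (9 and 2 UMIs) and *Tie1* (3 and 2 UMIs) were lower. The tendon list was at 21.2 and 53.3 CPM (2 of 3 higher) and the mural list at 8.36 and 16.9 CPM (4 of 4 higher). The Schwann list was at 2.39 and 2.93 CPM (2 of 4 higher). The muscle stem list went the other way, at 71.2 and 46.6 CPM, all of it *Vcam1*. The part of the endothelial, tendon, mural, Schwann and muscle stem lists in the result was not tested.

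Correlations across thinned cells are given as a description, since the cells of a library share its depth and free RNA. *C3* and *C4b* were the pair with the highest Pearson r in Cxcl14-type cells, at 0.47 over 559 cells in the WT-labelled library and 0.37 over 977 cells in the ΔMPC-labelled library. The same pair had r of 0.39 and 0.30 in the remaining cells and 0.24 and 0.16 in Dpp4-type cells. *C2* and *Serping1* had r of 0.39 and 0.22 in the remaining cells, and *C1s1* and *C1ra* had r of 0.23 and 0.25 there. *C3* and *Cd55*, which both leaned to Dpp4-type cells, had r of -0.18 and -0.14 within them. Most of the 28 pairs had a weak r, and only 2 to 9 of them were above 0.2 in any group of cells.

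For *C3*, the genes outside the list with the most similar pattern over the 4103 and 4378 cells, among 9471 genes ranked by mean r of the libraries, were *Smpd3* (mean r 0.35), *Daglb* (0.33), *Plpp3* (0.33), *Ptx3* (0.33) and *Pcolce2* (0.31). Their r with *C3* was 0.39 to 0.48 in the WT-labelled library and lower, 0.18 to 0.26, in the ΔMPC-labelled library. *C4b* was most like *Emb* (0.29), *Ahr*, *Apoe*, *Serpina3n* and *Steap4* (0.21 to 0.20), and *Serping1* was most like *Serpinf1* (0.39), *Ctsl*, *Cygb*, *Fbln1* and *Selenop* (0.33 to 0.31). No gene had a mean r above 0.08 with *Cfd*.

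Beyond the 9 genes, a wider list of complement genes was looked up, and 45 others were found. Over all cells 26 of these had 20 or more UMIs, of which 2 were over 3-fold higher in the ΔMPC-labelled library (*Masp1* and *Fcna*) and 2 over 3-fold lower (*Colec11* and *Cd93*), beside 3.15% and 2.12% of all genes, with a median log2 ratio of 0.12 beside 0.10. *Fcna* had 3 and 21 UMIs, *Colec11* 89 and 25 and *Cd93* 40 and 10, and the intervals of these ratios include 3. In Dpp4-type cells 2 of 19 were over 3-fold higher (*Masp1* and *Cd59b*) and none lower, beside 1.89% and 1.63% of all genes, with a median of 0.27. *Cd59b* had 6 and 20 UMIs there (interval 1.23 to 9.70, which includes 3). In Cxcl14-type cells 4 of 15 were over 3-fold higher (*C1qa*, *C1qb* and *Masp1* among them) and none lower, beside 3.52% and 1.82%, with a median of 0.25. In the remaining cells 2 of 23 were over 3-fold higher (*Masp1* and *Colec10*) and 2 lower (*Colec11* and *Cd93*), beside 3.31% and 2.08%, with a median of 0.16 beside 0.11 for all genes. There the intervals of *Colec10* (11 and 35 UMIs), *Colec11* (80 and 12) and *Cd93* (34 and 7) include 3. Several of the other complement genes with many UMIs had ratios near 1 over all cells: *Vtn* was at 84.8 and 87.1 CPM, *Clu* at 112 and 106 CPM and *Cr1l* at 81.8 and 86.7 CPM. In Cxcl14-type cells *Clu* was at 94.3 and 140 CPM (1.48-fold higher, 1.35 to 1.63). *Colec12* was at 162 and 121 CPM over all cells (1.34-fold lower, 1.30 to 1.39).

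*Masp1*, which encodes a protease of the lectin pathway that resembles C1r and C1s, had 72 UMIs in the WT-labelled library and 1088 in the ΔMPC-labelled library, or 1.41 and 21.96 CPM (15.6-fold higher, 12.3 to 20.0). Cxcl14-type cells held 11 and 596 of them, or 1.64 and 52.9 CPM (32.3-fold, 17.9 to 65.0). Dpp4-type cells held 0 and 22, which is 7.01-fold higher against a floor of 3 counts, with an exact interval that starts at 5.24-fold. Among groups with UMIs in both libraries, Cxcl14-type cells thus had the largest ratio for *Masp1*, as for *C3*, *C4b* and *Cfb*. The C1q genes, which macrophages are known to make, rested on few UMIs: *C1qa*, *C1qb* and *C1qc* had 0.149 to 4.00 CPM each in the groups of cells, and *C1qb* in Cxcl14-type cells went from 1 to 21 UMIs (12.5-fold, 2.01 to 517). *C1qa*, *C1qb* and *C1qc* are also on the macrophage list above.

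**Figure D5:**
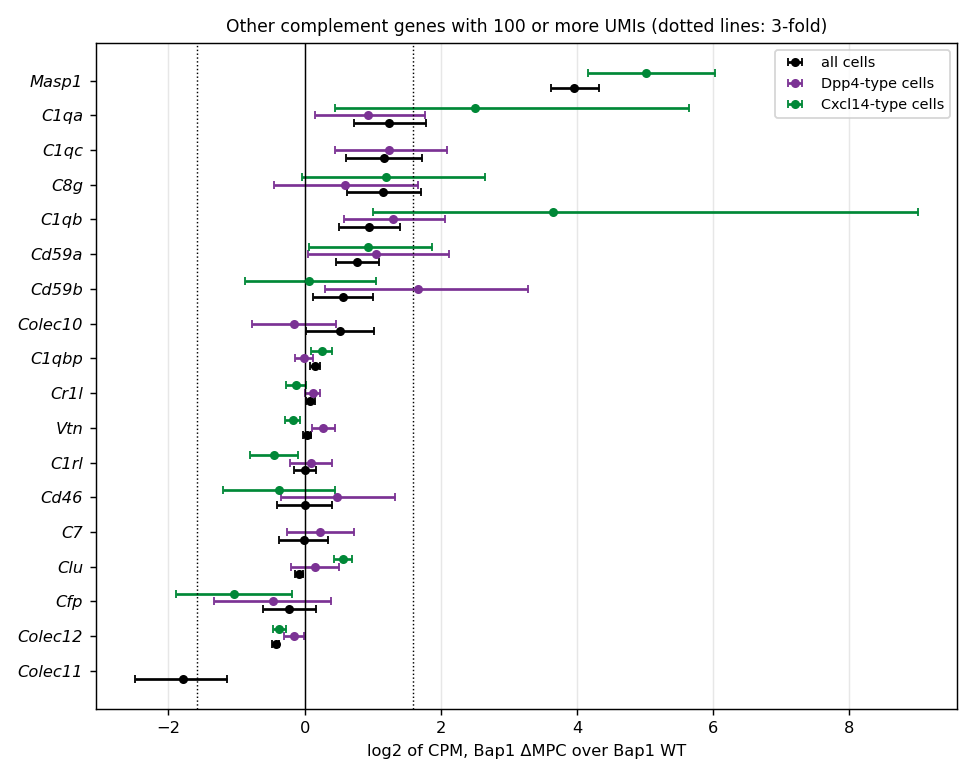
log2 of the CPM ratio, ΔMPC-labelled library over WT-labelled library, for 18 other complement genes with 100 or more UMIs over all cells, in black for all cells, purple for Dpp4-type and green for Cxcl14-type cells; bars are exact 95% intervals, dotted lines mark 3-fold, and a group is not drawn where it had under 20 UMIs or where a library had none (*Masp1* in Dpp4-type cells). *Masp1* lies farthest right at 3.96 over all cells and 5.01 in Cxcl14-type cells, and *Colec11* lies farthest left at -1.79.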

How the data were processed

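Sorted FAPs of 2 samples, 1 library per genotype, were profiled by droplet scRNA-Seq of transcript 3′ ends. The authors aligned reads to mm10 and counted UMIs with Cell Ranger 3.1.0, and the submitters' processing notes also name bcl2fastq 2.20.0, FastQC 0.11.7, R 3.6.1 and Seurat 3.2.1. The deposited values are UMI counts of each gene in each cell, with no scaling. The cells hold 2793 to 22492 UMIs each. The study's methods describe quality control, doublet gating and removal of cells high in markers of other muscle-resident cells, and the limits used, and whether each step came before deposit, were not given in the sources used here. Ptprc, Adgre1, Itgam, Itgax, Pax7, Myf5 and Myod1 had 0 UMIs in both libraries. The labels and the study's methods name different sequencers. Reads shared by close copies of a gene may have been dropped or counted for 1 copy, and UMIs at the 3′ end do not show which exons a transcript held.

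All deposited cells were used. UMIs were summed per library and group of cells and divided by the group's total. With 1 library per genotype no test was made: exact 95% intervals cover counting error, and a 3-fold ratio, the size used in the study's methods, marks a gene among those with 20 or more UMIs in both libraries together. Genes at 0 in a library were set against a floor of 3 counts. Cells were thinned at random to 5000 UMIs for shares and for correlations between pairs of complement genes, which left out 120 cells of the WT-labelled library and 210 of the ΔMPC-labelled library. The search for the genes with the most similar pattern used all cells, log-normalized and not thinned. Scrublet, run through scanpy 1.11.5, called 3 of 8481 cells doublets, and no cell was removed for this. Whether so few calls reflect the earlier doublet gating or a failure of the caller was not tested.

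The 9 genes, the wider list of 55 complement genes (54 found), the marker lists and the limits of the groups were chosen with earlier results of these data known. Genes named are the 9 genes, other complement genes with 100 or more UMIs, close copies, rule genes, markers and, for C3, C4b, Cfd and Serping1, the 5 genes found in 5% or more of cells of each library with the highest mean Pearson r across log-normalized cells. Fcna, Cd93, Cd59b and the genes overlapping the 9 were named after their values were seen where they fall outside that rule. Alternatives changed the fold, the scaling (TMM of edgeR 4.0.16 in R 4.3.3, or median-of-ratios size factors), the weight or depth of cells, the cells kept, the limits of the groups and the smallest UMI number. Python 3.11.15, numpy 2.4.6 and scipy 1.17.1 were used, and the counting of ratios was tested on simulated data. Promoter windows came from RefSeq on GRCm38.p6 and gene positions from a GENCODE annotation of GRCm38, the assembly also called mm10. Values of 1 gene of the wider list are not reported here, though it stays in the counts over that list.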

Additional observations from a re-analysis of the deposited data

Results flagged for a closer look

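The ratio of *C2* between the libraries had opposite signs in 2 groups of cells. In Cxcl14-type cells the log2 ratio (ΔMPC-labelled library over WT-labelled library) was 0.61, and in the remaining cells it was -1.09. The difference between these ratios was -1.70, with a counting interval of -2.00 to -1.39. With 1 library per genotype the difference was not tested between samples. The sign in Cxcl14-type cells also depended on where the limit on *Cxcl14* was set.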

How the results depend on the processing

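Each genotype is 1 library, so genotype, library and animal cannot be told apart, and intervals cover counting error only. No paired analysis was possible because a genotype has a single library and nothing was tested across samples. Depth limits *Cfd* (2 and 13 UMIs) and *Cfb* in Cxcl14-type cells most. Of 360 recomputed values for 32 results, 270 stayed within the counting interval or within 1.5 times the count, 89 moved further and 1 reversed.

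The reversed value was the log2 ratio of *C2* in Cxcl14-type cells, -0.068 when these cells began at 2 *Cxcl14* UMIs per 10000, and 1.23 when they began at 10. The log2 ratio of *C3* over all cells was 1.68 when each cell weighed the same or was thinned, and 1.46 when all cells were weighted to the mix of groups in the WT-labelled library, an alternative chosen after seeing the data, under which *C4b* was at 0.67 and *C2* at -0.92. In Dpp4-type cells the log2 ratio of *C3* was 0.79 with a limit of 15 and 0.33 with a limit of 40. Scaling by TMM moved the median of all genes in the remaining cells by -0.13 and by median-of-ratios size factors by -0.12.

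Over all cells, the complement genes higher in the ΔMPC-labelled library numbered 2 at a fold of 2, 1 (*C3*) with each cell weighing the same and 1 (*C3*) after thinning, and 1 was lower at a fold of 2. The wider list, here including the complement genes just counted, had 7 of 34 higher at a fold of 2, *C3* and *Cfb* among them. It had 1 higher with 100 or more UMIs, 1 lower after thinning and 1 lower with 100 or more UMIs. All genes tested had 977 higher and 791 lower of 14729 at a fold of 2, 224 and 161 with 100 or more UMIs, and 1695 and 533 with 1 or more. The numbers tested at the other UMI limits are not given here. Counts of all genes with each cell weighing the same or after thinning are also not given. The counts of complement genes at those settings thus cannot be set beside a share.

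In Dpp4-type cells the wider list had 6 higher at a fold of 2, 1 after thinning, 1 without cells with macrophage markers, 1 with a limit of 15, 0 with a limit of 40, 0 with 100 or more UMIs and 4 with 1 or more, where 2 were lower. All genes there had 543 higher and 565 lower of 12517 at a fold of 2, 83 and 84 with 100 or more UMIs, and 498 and 1336 with 1 or more. In Cxcl14-type cells the wider list had 1 lower at a fold of 2 and 3 lower with 1 or more UMIs. All genes in these cells had 849 higher and 594 lower of 12265 at a fold of 2, 138 and 94 with 100 or more UMIs, and 663 and 1646 with 1 or more. Counts at 1 or more UMIs include genes at 0 in a library. The numbers tested at the other UMI limits are not given here. Counts of all genes after thinning, without cells with macrophage markers or at other limits of the groups are also not given. The counts of the wider list at those settings thus cannot be set beside a share.

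Between groups of cells, the genes over the fold in Cxcl14-type cells of the WT-labelled library numbered 2 at a fold of 2, 0 with a Dpp4-type limit of 15 and 0 with a *Cxcl14* limit of 10 (*C2* was no longer called in either), and in the ΔMPC-labelled library 5 at a fold of 2. The shares of all genes over the fold at these settings are not given here, so these counts cannot be set beside them. The shares of cells with a UMI moved most with depth. Thinned, they were 24.1% and 52.4% for *C3*, 7.26% and 12.4% for *C4b*, 77.6% and 64.2% for *C1s1*, 57.4% and 40.3% for *C1ra*, 16.6% and 10.6% for *C2*, 2.94% and 6.31% for *Cfb*, 98.7% and 92.8% for *Serping1* and 42.0% and 52.4% for *Cd55* (Bap1 WT first), and 0 for *Cfd* in the WT-labelled library, with 0.144% in the other. No share changed which library was higher. Where a count moved, the cause was not tested beyond what the alternative itself changes.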
